A study of Sus scrofa with 6 samples.

Results

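The 37 genes described here carry the cellular response to a DNA double-strand break, and they were picked by name from the 29861 genes whose expression was listed in porcine oocytes. By role, 17 of them are sensors and kinases, 15 belong to homologous recombination and 5 to end joining, and all 37 were found in the table. RNA was sequenced from 6 samples of Sus scrofa oocytes, 2 in each of 3 groups, and all were labelled with a time of 24 h. Control oocytes were cultured at the usual maturation temperature, heat-stressed oocytes were first cultured at a raised temperature, and the third group received heat stress together with nicotinamide mononucleotide (NMN), a precursor of the coenzyme NAD, and is called NMN-supplemented, so that values with NMN added always include heat stress. No group received NMN without heat, so the NMN-supplemented oocytes differ from control by both treatments. The labels place the oocytes at the germinal vesicle (GV) stage, whereas the methods of the study describe metaphase II oocytes pooled within each group, and nothing states whether the 2 samples of a group were collected separately. P-values therefore measure the spread between these samples, which may be technical.

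A double-strand break severs both strands of the helix and is among the most dangerous lesions a cell can carry. The MRE11-RAD50-NBN complex recognizes broken ends and recruits the kinase ATM, whereas ATR with its partner ATRIP is drawn to single-stranded DNA coated by the RPA proteins, and these kinases pass the signal to CHEK2 and CHEK1. Chromatin around the break is marked by MDC1, RNF8, RNF168 and TP53BP1. The break is then repaired either by homologous recombination, in which BRCA1, PALB2 and BRCA2 act on resected DNA and an intact copy of the sequence serves as template, or by end joining, in which the Ku proteins hold the ends and the XRCC4-LIG4 ligase seals them. Oocytes introduce and repair such breaks during meiotic recombination, and the grown oocyte relies largely on messenger RNA stored during growth.

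Expression was given as FPKM, the fragments assigned to a gene per length of transcript and per mapped fragments of the library, so that levels of different genes can be set side by side. The levels ran from PALB2 at a mean of 23.9 FPKM over the 6 samples, rank 400 of all genes, to ATRIP at 0.0205 FPKM. Of the 37 genes, 17 had a mean of at least 1 FPKM and were tested among the 4713 genes that reached this level. A further 15 lay between 0.1 and 1 FPKM and 5 lay lower still (ATRIP, CHEK2, NBN, XRCC5 and PRKDC). The 3 roles were unevenly expressed, since 9 of the 15 recombination genes reached 1 FPKM, against 7 of the 17 sensors and kinases and 1 of the 5 end-joining genes, which was LIG4. The median of the mean levels was 1.36 FPKM for homologous recombination, 0.709 FPKM for sensors and kinases and 0.514 FPKM for end joining.

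**Figure D1:**
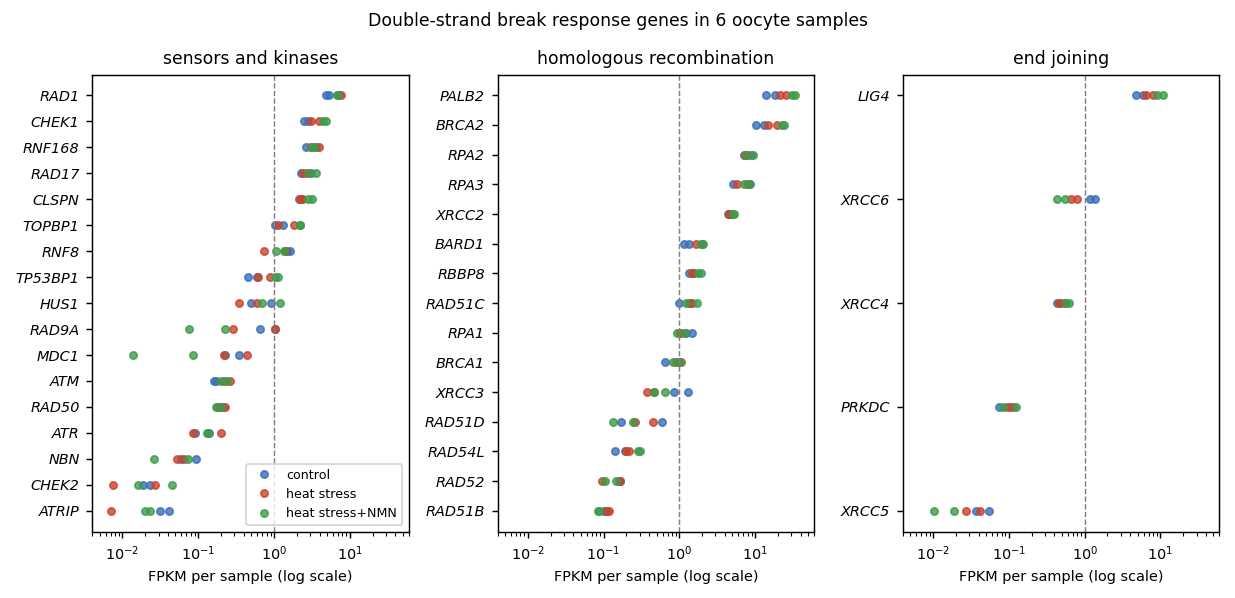
FPKM of each of the 37 genes in each sample on a log axis, 1 panel per role, with control in blue, heat stress in red and heat stress+NMN in green; the dashed line marks 1 FPKM, and the sample of ATRIP listed at 0 is not drawn. PALB2 and BRCA2 stand above the other recombination genes, LIG4 stands above the other end-joining genes, and the kinases ATM, ATR and CHEK2 stay below 1 FPKM in every sample.

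Facts that concern all genes bear on these values. Transcripts of the mitochondrial genome held 61.7 to 66.4% of the summed FPKM in control, 62.4 and 71.6% under heat stress and 74.2 and 74.7% with NMN added, and a single locus, LOC100513953, held 13.9% in heat-stressed sample 1 and was listed at 0 in the other samples. Of 14 oocyte markers, 12 reached 1 FPKM, with DDX4 and FIGLA below it, and their summed level was 3380 and 3602 FPKM in control, 3288 and 3290 FPKM under heat stress and 3083 and 2838 FPKM with NMN added. The marker GDF9 had 732 and 777 FPKM in control and 435 and 353 FPKM with NMN added. ZAR1 had 17.3 and 23.8 FPKM and 4.30 and 2.84 FPKM, in the opposite direction to PALB2 and BRCA2. ZP2, ZP3, ZP4, NLRP5, NPM2, MOS and FIGLA were also lower in both samples with NMN than in both control samples. BMP15, the highest marker, was higher, with 1606 and 1646 FPKM in control and 1820 and 1751 FPKM with NMN added. Control and NMN-supplemented samples overlapped in DAZL, DDX4, OOEP and BTG4. The part of these marker changes in the results was not tested. None of the 14 listed markers of cumulus and granulosa cells reached 1 FPKM, their sum was 0.851 to 1.51 FPKM, and AMH and INHA were at 0 in every sample. In pooled samples of this kind, fewer cells of a type and less RNA per cell cannot be told apart, and FPKM gives a share of the sequenced RNA and not an amount per oocyte. The files hold no read counts that were used, and the sequencing depth of the samples is unknown.

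Several of these genes start within a short distance of a neighbour that is transcribed in the opposite direction. In the RefSeq annotation of Sscrofa11.1, 17 of the 37 genes (45.9%) had such a head-to-head neighbour at most 1000 bases away, compared with 10.5% of all genes in the table and 15.7% of the 4713 tested genes. Within 200 bases the shares were 40.5% of the 37 genes and 11.4% of the tested genes. The DNA between the annotated starts is shown for PALB2, BRCA2, LIG4 and RAD1, whose expression is described further on, since the stretch lies directly before both starts. Each sequence is given 5′ to 3′ on the strand of the repair gene and ends just before its annotated start.
PALB2 and DCTN5, chr3:22586807-22586880, plus strand: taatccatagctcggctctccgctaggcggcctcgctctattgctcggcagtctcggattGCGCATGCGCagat
BRCA2 and ZAR1L, chr11:8805877-8805949, plus strand: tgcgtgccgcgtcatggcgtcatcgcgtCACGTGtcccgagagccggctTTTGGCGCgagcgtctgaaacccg
LIG4 and ABHD13, chr11:75547712-75547747, minus strand: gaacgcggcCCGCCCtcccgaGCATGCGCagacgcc
RAD1 and BRIX1, chr16:20512199-20512280, minus strand: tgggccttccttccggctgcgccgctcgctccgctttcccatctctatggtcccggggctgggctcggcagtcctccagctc

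Capitals mark the motifs found in a search of both strands for 5 motifs, of which those of NRF1, E2F and the E-box were chosen after the sequences had been read. GCATGCGC, letters of the NRF1 motif, occurred in the stretches of PALB2 and LIG4, once on each strand in PALB2, where the 2 matches overlap. These letters were present in 1.59% of windows of the same length before the starts of 4710 tested genes for PALB2, and in 0.807% for LIG4. The BRCA2 stretch held the E2F letters TTTGGCGC, present in 0.297% of such windows, and the E-box CACGTG, present in 2.99%. The SP1 letters GGGCGG were found in the LIG4 stretch alone, on the other strand, and in 19.1% of its windows. The letters CCAAT, of the CCAAT box, were in none of the 4 stretches, and the RAD1 stretch held none of the 5 motifs. A match describes the letters and not a bound factor.

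PALB2 bridges BRCA1 to BRCA2, and its level was 18.5 and 14.1 FPKM in control, 21.1 and 25.2 FPKM under heat stress and 34.0 and 30.6 FPKM with NMN added. The 3 groups did not overlap, and the means were 16.3 ± 3.10, 23.2 ± 2.91 and 32.3 ± 2.39 FPKM (SD, n = 2). BRCA2, which acts on the resected single-stranded DNA, had 13.1 and 10.3 FPKM in control, 14.9 and 19.4 FPKM under heat stress and 22.4 and 24.2 FPKM with NMN added. Its samples were in the same order of groups, again without overlap. RAD51B, RAD54L, ATRIP and XRCC3 were among the other genes without overlap between any of the 3 groups. With n = 2 per group such separation can arise without any change. Its share over all genes was not counted, here or for the genes described below. The ratio of PALB2 to BRCA2 was 1.26 to 1.51 over the 6 samples, and the control and NMN-supplemented samples overlapped in it. PALB2 lies on chromosome 3 from 22586881 to 22612837 with 13 exons in its longest transcript, and BRCA2 lies on chromosome 11 from 8805950 to 8858128 with 37 exons.

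Fold changes were estimated with limma on log2(FPKM + 1), which makes them smaller than the FPKM ratio for low genes. Heat-stressed oocytes were compared with control to ask what heat stress did to these transcripts. PALB2 rose by 0.49 ± 0.17 on the log2 scale (SE, limma, adjusted P = 0.19), BRCA2 rose by 0.51 ± 0.18 (adjusted P = 0.19) and RAD1 rose by 0.48 ± 0.11 (adjusted P = 0.13), each passing at the unadjusted threshold only. Thus 3 of the 17 tested genes rose at an unadjusted P under 0.05 and 0 fell, while 12.7% of the 4713 genes rose and 10.1% fell. After Benjamini-Hochberg adjustment none of the 17 passed in limma, as was so for all 4713 genes. The median log2 fold change of the 17 genes was 0.14 beside 0.05 over all tested genes. The changes of PALB2 and BRCA2 did not pass the threshold without control sample 2, without heat-stressed sample 2 or without either NMN-supplemented sample, which enter through the shared spread, whereas RAD1 passed it whichever sample was left out.

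NMN-supplemented oocytes were compared with heat-stressed oocytes to ask what NMN added to heat stress. PALB2 was higher by 0.46 ± 0.17 (SE, log2 scale, limma, adjusted P = 0.35) and LIG4 by 0.42 ± 0.16 (adjusted P = 0.36), again at the unadjusted threshold only. These 2 of 17 genes, with 0 lower, stand beside 7.15% of all tested genes that were higher and 6.45% that were lower, and no gene passed the adjusted threshold in limma. BRCA2 (0.44 ± 0.18), CLSPN (0.30 ± 0.12) and CHEK1 (0.33 ± 0.14) did not pass either threshold. The median log2 fold change of the 17 was 0.17 beside 0.08 over all tested genes. Neither call was kept when NMN-supplemented sample 1 was left out, nor was that of PALB2 without NMN-supplemented sample 2 or heat-stressed sample 1, or that of LIG4 without heat-stressed sample 2. RAD1 had a log2 fold change of -0.11 ± 0.11 (adjusted P = 0.62) in this comparison.

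NMN-supplemented oocytes differed most from control. Of the 17 tested genes 8 were higher (47.1%) and 0 lower, compared with 25.6% of all tested genes that were higher and 15.7% that were lower. At an adjusted P under 0.05, limma kept PALB2, BRCA2, LIG4 and CHEK1, 4 of 17, where 21.5% of all tested genes were kept in either direction. PALB2 was 0.96 ± 0.17 higher (adjusted P = 0.025), BRCA2 0.95 ± 0.18 higher (adjusted P = 0.027), LIG4 0.79 ± 0.16 higher (adjusted P = 0.031) and CHEK1 0.62 ± 0.14 higher (adjusted P = 0.038), all SE in limma on the log2 scale. As ratios of mean FPKM these were 1.98 for PALB2, 2.0 for BRCA2, 1.87 for LIG4 and 1.74 for CHEK1. The median log2 fold change of the 17 was 0.22 beside 0.11 over all tested genes. The 3 comparisons share samples, since each group enters a pair of them, so their values are not independent of each other. Without heat-stressed sample 1, which carries LOC100513953, 4, 2 and 7 of the 17 genes passed the unadjusted threshold in the comparisons in the order given, beside 8.25%, 3.46% and 24.7% of all tested genes that were higher, and scaled to the summed FPKM of nuclear genes without that locus 1, 2 and 7 passed, beside 7.07%, 5.45% and 22.3%. All these genes were higher. The 4 adjusted calls rest on every sample of the groups compared, with 0 kept without control sample 2 or either NMN-supplemented sample and 1 without control sample 1.

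**Figure D2:**
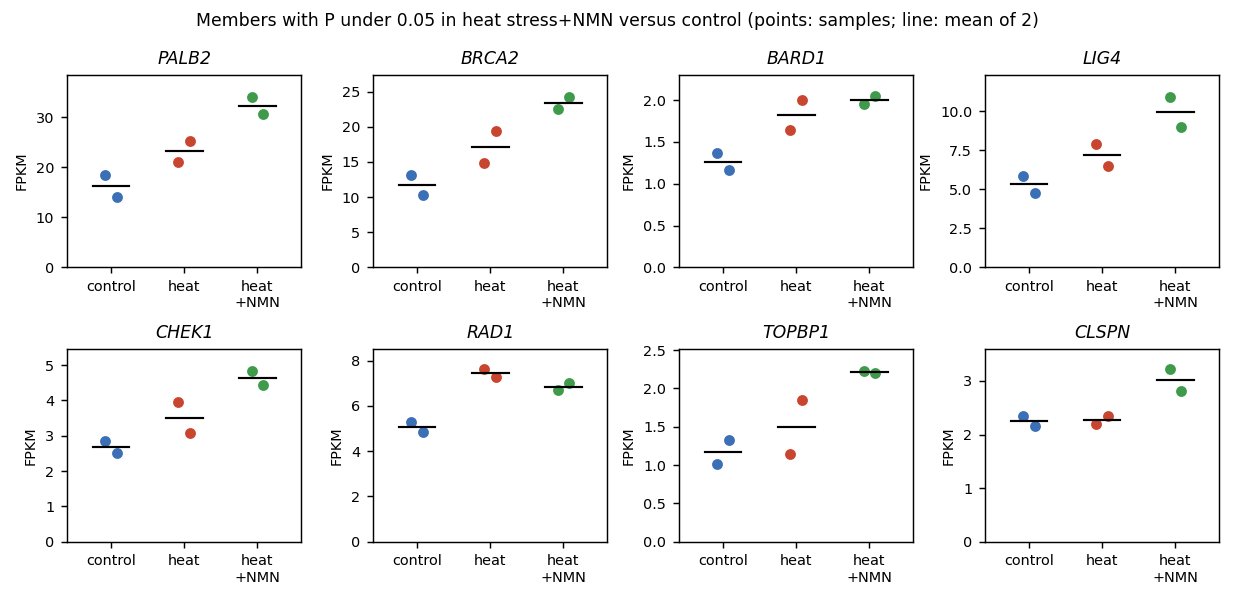
FPKM of the 8 genes with P under 0.05 between NMN-supplemented and control oocytes; points are the 2 samples of each group and lines their means, on axes starting at 0. PALB2, BRCA2, LIG4, CHEK1 and RAD1 have no overlap between any 2 of the 3 groups. RAD1 is highest in the heat-stressed samples, the other named genes in the NMN-supplemented samples.

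Among the sensors and kinases, RAD1 was the gene with the highest level. It forms a ring-shaped checkpoint clamp with RAD9A and HUS1 and had 5.27 and 4.86 FPKM in control, 7.60 and 7.29 FPKM under heat stress and 6.69 and 7.0 FPKM with NMN added. Both groups exposed to heat thus lay above control, and the heat-stressed samples were the highest. Between NMN-supplemented and control oocytes RAD1 differed by 0.37 ± 0.11 on the log2 scale (SE, limma, adjusted P = 0.061), past the unadjusted threshold except without control sample 2 or either NMN-supplemented sample. RAD9A, with a mean of 0.551 FPKM, had 1.03 and 0.654 FPKM in control, 1.04 and 0.285 FPKM in heat-stressed and only 0.223 and 0.0768 FPKM in NMN-supplemented oocytes. HUS1 ranged from 0.343 to 1.21 FPKM, and RAD17, which loads the clamp, from 2.30 to 3.54 FPKM. In both genes control overlapped each of the other groups, and both samples with NMN added lay above both heat-stressed samples. Differences between the clamp genes were not tested.

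CHEK1, the kinase that ATR activates, had 2.84 and 2.5 FPKM in control, 3.96 and 3.07 FPKM under heat stress and 4.85 and 4.45 FPKM with NMN added. CLSPN, the adaptor through which ATR reaches CHEK1, had 2.34 and 2.16 FPKM in control, 2.19 and 2.35 FPKM under heat stress and 3.22 and 2.81 FPKM with NMN added. Control and heat-stressed oocytes overlapped in CLSPN, and the NMN-supplemented samples lay above both (against control 0.30 ± 0.12, SE, log2 scale, limma, adjusted P = 0.11, past the unadjusted threshold). That call was lost when any 1 of the 6 samples was left out. TOPBP1, which activates ATR, had 1.02 and 1.32 FPKM in control, 1.14 and 1.85 FPKM under heat stress and 2.23 and 2.19 FPKM with NMN added, and it was 0.57 ± 0.18 higher in the latter than in control (limma, adjusted P = 0.069), past the unadjusted threshold except without control sample 1 or either NMN-supplemented sample.

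The kinases at the top of the pathway were listed well below 1 FPKM, though above 0 in every sample. By mean level ATM ranked 9208 and ATR 10726 of the 29861 genes, above the median of 0.0338 FPKM over all genes, and CHEK2 lay below that median. ATM lay between 0.163 and 0.266 FPKM, ATR between 0.0864 and 0.203 FPKM and CHEK2 between 0.00759 and 0.0449 FPKM. ATRIP was the only one of the 37 genes listed at 0 in a sample, with 0.0414 and 0.0313 FPKM in control, 0.00707 and 0 FPKM under heat stress and 0.0234 and 0.0197 FPKM with NMN added. At this level no change can be read from it. RAD50 ranged from 0.172 to 0.228 FPKM and NBN from 0.0258 to 0.0944 FPKM, and their partner MRE11, which is not among the 37 genes, had 0.888 and 0.658 FPKM in control, 1.30 and 1.34 FPKM under heat stress and 1.26 and 1.42 FPKM with NMN added.

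Of the chromatin mediators, the ubiquitin ligases RNF168 and RNF8 were tested and passed in no comparison. RNF168 ranged from 2.64 to 3.89 FPKM and RNF8 from 0.741 to 1.65 FPKM, with log2 fold changes between NMN-supplemented and control oocytes of 0.05 ± 0.16 (limma, adjusted P = 0.85) and -0.23 ± 0.19 (limma, adjusted P = 0.40). TP53BP1, which restrains resection of the ends, was below the level for testing, with 0.589 and 0.450 FPKM in control, 0.606 and 0.876 FPKM under heat stress and 1.12 and 1.04 FPKM with NMN added. MDC1, which binds the phosphorylated histone at the break, had 0.225 and 0.343 FPKM in control, 0.220 and 0.435 FPKM under heat stress and 0.0849 and 0.0136 FPKM with NMN added. By these values TP53BP1 was highest and MDC1 lowest in NMN-supplemented oocytes. Both lay below the level for testing, and the difference between them was not tested.

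Of the recombination genes, BARD1, the partner of BRCA1, had 1.36 and 1.16 FPKM in control, 1.65 and 2.0 FPKM under heat stress and 1.95 and 2.05 FPKM with NMN added. Control samples were the lowest, and BARD1 was 0.41 ± 0.13 higher in NMN-supplemented than in control oocytes (SE, log2 scale, limma, adjusted P = 0.071), past the unadjusted threshold except without control sample 2 or either NMN-supplemented sample. BRCA1 itself ranged from 0.643 to 1.04 FPKM with overlapping groups. RBBP8, which starts the resection of DNA ends, ranged from 1.35 to 1.93 FPKM and its log2 fold change between NMN-supplemented and control oocytes was 0.22 ± 0.12 (limma, adjusted P = 0.21).

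The RPA proteins coat single-stranded DNA, and none of their genes passed the test in any comparison. RPA2 ranged from 7.06 to 9.25 FPKM, RPA3 from 5.04 to 8.57 FPKM and RPA1, the lowest of the 17 tested genes, from 0.919 to 1.47 FPKM. The group of XRCC2, XRCC3, RAD51B, RAD51C and RAD51D, whose proteins form complexes that assist recombination, spanned a wide range of levels. XRCC2 lay between 4.42 and 5.27 FPKM and RAD51C between 0.994 and 1.73 FPKM, neither passing in any comparison, whereas RAD51D lay between 0.133 and 0.591 FPKM and RAD51B between 0.0845 and 0.118 FPKM. XRCC3 went the other way from PALB2 and BRCA2, with 1.32 and 0.858 FPKM in control, 0.460 and 0.375 FPKM under heat stress and 0.464 and 0.649 FPKM with NMN added. Both control samples thus lay above all 4 samples exposed to heat. RAD52 ranged from 0.0941 to 0.167 FPKM and RAD54L, a DNA motor protein, from 0.143 to 0.305 FPKM.

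The end-joining genes were dominated by LIG4, the ligase that seals the ends. LIG4 lies on chromosome 11 from 75537027 to 75547711 with 2 exons, and it had 5.87 and 4.79 FPKM in control, 7.87 and 6.51 FPKM under heat stress and 10.9 and 9.01 FPKM with NMN added, with no overlap between the groups. XRCC6, a subunit of the Ku ring that threads onto the broken end, moved in the opposite direction, with 1.18 and 1.37 FPKM in control, 0.663 and 0.794 FPKM under heat stress and 0.545 and 0.438 FPKM with NMN added. The ratio of LIG4 to XRCC6 was 4.97 and 3.50 in control, 11.9 and 8.20 under heat stress and 20.0 and 20.6 with NMN added. XRCC5, the other Ku subunit, ranged from 0.0102 to 0.0543 FPKM, the kinase PRKDC from 0.0730 to 0.126 FPKM and XRCC4, the partner of LIG4, from 0.438 to 0.620 FPKM.

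Because many of the 37 genes lie below 1 FPKM, the fit was repeated on the 11651 genes with a mean of at least 0.1 FPKM, which included 32 of them. Between NMN-supplemented and control oocytes 9 were then higher and 4 lower, beside 13.3% and 14.5% of all genes in that fit. XRCC6 fell by 0.61 ± 0.10 on the log2 scale (SE, limma, adjusted P = 0.054), RAD9A by 0.68 ± 0.25 (adjusted P = 0.17), XRCC3 by 0.42 ± 0.14 (adjusted P = 0.15) and MDC1 by 0.29 ± 0.11 (adjusted P = 0.16), and TP53BP1 joined the genes that rose (0.46 ± 0.12, adjusted P = 0.093). In heat-stressed against control oocytes 4 were higher, BARD1 being added, and 2 lower, beside 7.02% and 8.99% of all genes. The 2 that fell were XRCC3, by 0.55 ± 0.14 (adjusted P = 0.22), and XRCC6, by 0.40 ± 0.10 (adjusted P = 0.22). Against heat-stressed oocytes, those with NMN had 3 genes higher, CLSPN being added, and MDC1 lower by 0.34 ± 0.11 (adjusted P = 0.48), beside 4.33% and 5.64% of all genes. None of the 32 genes passed the adjusted threshold in this fit. The fall of XRCC6 between NMN-supplemented and control oocytes passed the unadjusted threshold whichever sample was left out. The falls of RAD9A and MDC1 in that comparison were lost without either control or either NMN-supplemented sample, that of XRCC3 without any sample but control sample 2, and the rise of TP53BP1 without control sample 2 or NMN-supplemented sample 1. In heat-stressed oocytes the fall of XRCC3 was lost without heat-stressed sample 2 and that of XRCC6 without control sample 2 or heat-stressed sample 1, and the fall of MDC1 against heat-stressed oocytes was lost without heat-stressed sample 2 or either NMN-supplemented sample.

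**Figure D3:**
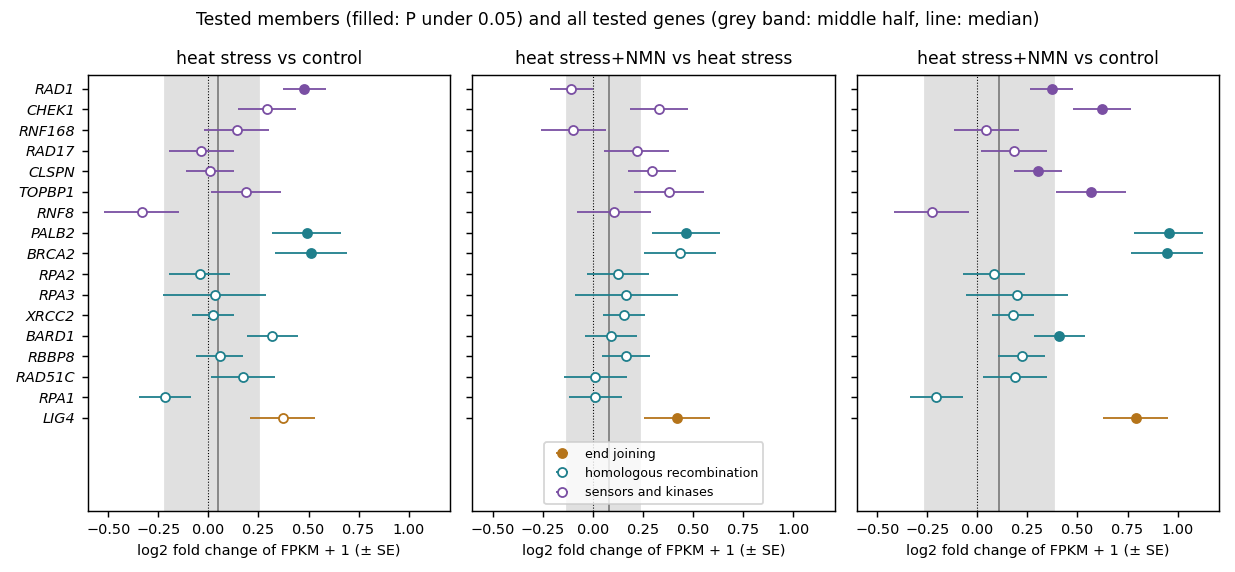
Log2 fold change of FPKM + 1 with its SE for the 17 tested genes in each comparison, coloured by role and filled where P was under 0.05; the grey band is the interquartile range and the grey line the median of all 4713 tested genes. PALB2, BRCA2, LIG4, CHEK1, TOPBP1 and BARD1 lie to the right of the band between heat stress+NMN and control, and RNF8 and RPA1 are the genes to the left of 0 there.

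The 3 roles were compared by their summed FPKM and by their counts. The 15 recombination genes summed to 56.9 and 53.4 FPKM in control, 63.5 and 71.2 FPKM under heat stress and 87.9 and 83.2 FPKM with NMN added. The 17 sensors and kinases summed to 21.8 and 21.1 FPKM, 25.2 and 24.3 FPKM, and 27.9 and 26.5 FPKM in the same order, and the 5 end-joining genes to 7.61 and 6.80 FPKM, 9.12 and 7.99 FPKM, and 12.2 and 10.1 FPKM. All 3 sums were lowest in control and highest in NMN-supplemented oocytes. Scaled to nuclear FPKM, which LOC100513953 weighs on in heat-stressed sample 1, the ratio of heat-stressed to control sums was 0.931 for sensors and kinases, 1.01 for recombination and 0.943 for end joining in place of 1.15, 1.22 and 1.19, while with NMN added the ratios to control were 1.28, 1.57 and 1.56 in place of 1.27, 1.55 and 1.55. The ratio of the recombination sum to the end-joining sum was 7.48 and 7.85 in control, 6.96 and 8.92 under heat stress and 7.21 and 8.20 with NMN added, so that the groups overlapped in it.

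These sums rested on a few genes. PALB2 and BRCA2 together made up 55.5 and 45.7% of the recombination sum in control, 56.7 and 62.6% under heat stress and 64.2 and 65.9% with NMN added, and without them the other 13 genes summed to 25.3 and 29.0 FPKM, 27.5 and 26.6 FPKM, and 31.5 and 28.4 FPKM. LIG4 made up 77.2 and 70.5% of the end-joining sum in control and 89.7 and 88.7% in NMN-supplemented oocytes. Without LIG4 the end-joining sum was lower in the heat-exposed groups, at 1.73 and 2.01 FPKM in control, 1.24 and 1.48 FPKM under heat stress and 1.26 and 1.14 FPKM with NMN added. XRCC6 accounts for that order, since XRCC4, XRCC5 and PRKDC summed to 0.548 and 0.635 FPKM in control, 0.581 and 0.682 FPKM under heat stress and 0.715 and 0.705 FPKM with NMN added. Between NMN-supplemented and control oocytes, 4 of 7 tested sensors and kinases, 3 of 9 tested recombination genes and the only tested end-joining gene were higher, beside 25.6% of all tested genes, and the median log2 fold changes were 0.30, 0.20 and 0.79 beside 0.11. The medians depend on the settings, that of the recombination genes running from 0.12 with the GC and length trends removed to 0.57 with a minimum of 5 FPKM, and that of the sensors and kinases being 0.03 with those trends removed. The differences between roles were not tested.

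The fold changes of all genes varied with the base composition and the length of their transcripts. Over 4711 tested genes the Spearman correlation between the log2 fold change and the GC content of the longest annotated transcript was -0.48 for heat-stressed against control, -0.13 for NMN-supplemented against heat-stressed and -0.42 for NMN-supplemented against control oocytes. With the length of that transcript it was 0.30, 0.28 and 0.40 in the same order. These values are a description across genes that share the same libraries. In the lowest tertile of genes by GC content 43.7% were higher and 4.52% lower in NMN-supplemented than in control oocytes. The shares were 24.2% and 14.2% in the middle tertile, which holds PALB2 and LIG4, and 8.98% and 28.3% in the highest. Of the 17 tested repair genes, 10 were in the lowest tertile, 7 in the middle one and 0 in the highest. BRCA2 had 38.0% GC, CHEK1 39.3%, LIG4 44.2% and PALB2 45.1%, whereas of the genes that fell in the fit with the lower minimum, XRCC6 had 51.5%, MDC1 58.6%, RAD9A 62.4% and XRCC3 63.7%.

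**Figure D4:**
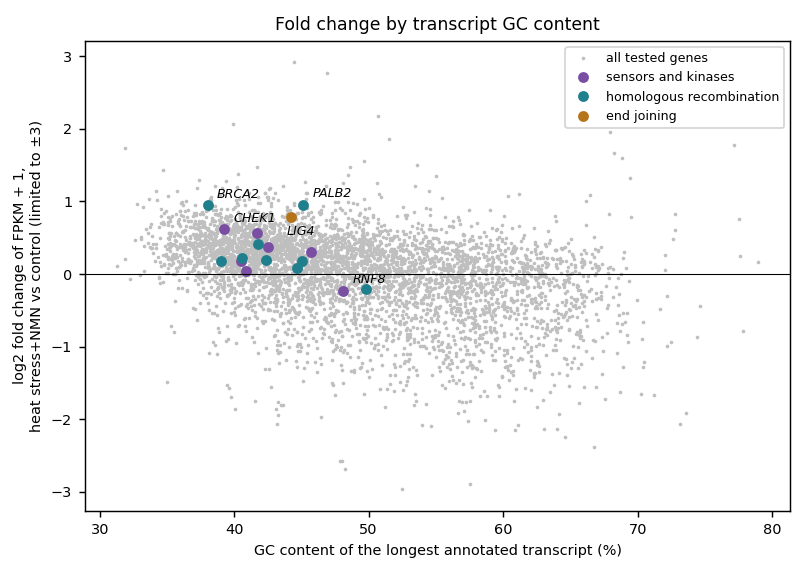
Log2 fold change between NMN-supplemented and control oocytes against transcript GC content for all tested genes (grey, limited to ±3) and the 17 tested repair genes by role. The cloud of genes slopes downward, and all 17 repair genes lie below 50% GC, with PALB2, BRCA2, LIG4 and CHEK1 in its upper part.

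With the trends on GC content and transcript length removed, a check chosen after the data were seen, PALB2 was 0.74 higher, BRCA2 0.51 higher, LIG4 0.51 higher and CHEK1 0.42 higher on the log2 scale in NMN-supplemented than in control oocytes, each past the unadjusted threshold in limma. RAD1 (0.03), CLSPN (0.03), BARD1 (0.08) and TOPBP1 (0.22) no longer passed, and RNF8 passed as lower, as it did in heat-stressed against control oocytes. The count was thus 4 higher and 1 lower in place of 8 and 0, beside 19.2% higher and 13.6% lower of all genes in that fit, and no gene of the 17 passed after adjustment in limma. In heat-stressed against control oocytes RAD1 remained higher (0.29), whereas PALB2 (0.35) and BRCA2 (0.22) did not pass. In the fit with the lower minimum, XRCC6 still fell in NMN-supplemented against control oocytes, by 0.53 and past the unadjusted threshold. The falls of RAD9A, XRCC3 and MDC1 in that comparison no longer passed, whereas the rise of TP53BP1 did.

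Some of the head-to-head neighbours were followed in the same samples. ZAR1L, an oocyte gene that shares its start region with BRCA2, had 148 and 154 FPKM in control, 138 and 131 FPKM under heat stress and 131 and 114 FPKM with NMN added, and it was lower in the latter than in control by 0.30 ± 0.12 (SE, log2 scale, limma, adjusted P = 0.12, past the unadjusted threshold), whereas BRCA2 was higher. The neighbour of CHEK1, the long non-coding RNA LOC110255454, started 366 bases away and had 6.07 and 6.05 FPKM in control, 3.87 and 4.97 FPKM under heat stress and 3.92 and 4.31 FPKM with NMN added, a fall by 0.47 ± 0.14 (limma, adjusted P = 0.064, past the unadjusted threshold) where CHEK1 rose. BRIX1, the neighbour of RAD1 and a ribosome assembly gene, ranged from 19.5 to 25.1 FPKM and did not pass in any comparison. ABHD13, by contrast, had 1.39 and 1.15 FPKM in control, 1.99 and 1.26 FPKM under heat stress and 2.31 and 2.64 FPKM with NMN added, and like LIG4 it was higher in the latter than in control (0.61 ± 0.17, limma, adjusted P = 0.059, past the unadjusted threshold). DCTN5, the neighbour of PALB2, ranged from 0.317 to 0.598 FPKM and was not tested. Of the 4 tested pairs drawn, 2 moved in opposite directions and 1 in the same direction, and the differences within pairs were not tested. Of neighbours not drawn, TUBB, 87 bases from MDC1, had 6.72 and 8.70 FPKM in control and 3.64 and 3.56 FPKM with NMN added. It was lower in the latter by 0.91 ± 0.14 (limma, adjusted P = 0.022), as was MDC1 in the fit with the lower minimum. HSCB, beside CHEK2, was higher by 0.48 ± 0.16 (limma, adjusted P = 0.080, past the unadjusted threshold). The neighbours of ATM, XRCC6 and PRKDC did not pass in that comparison.

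**Figure D5:**
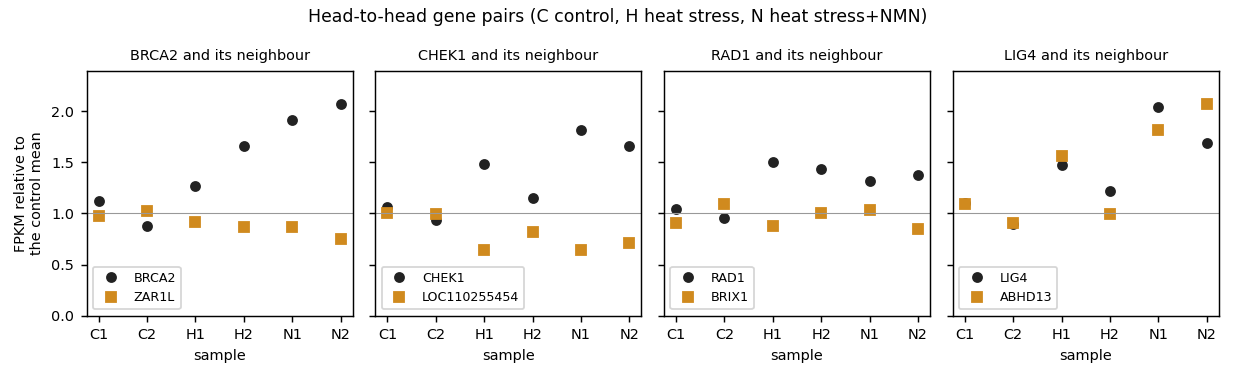
FPKM relative to the mean of the 2 control samples for 4 repair genes (circles) and their head-to-head neighbours (squares) in each sample. BRCA2 and CHEK1 rise above 1 where ZAR1L and LOC110255454 fall below it, and BRIX1 stays near 1 beside a higher RAD1. LIG4 and ABHD13 both lie above 1 with NMN added, and ABHD13 overlaps control under heat stress.

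Other genes of DNA repair were counted for comparison, from lists set beside the 37 genes. Their counts stand beside 12.7% of all tested genes higher and 10.1% lower in heat-stressed than in control oocytes, 7.15% and 6.45% in NMN-supplemented than in heat-stressed oocytes, and 25.6% and 15.7% in NMN-supplemented than in control oocytes. Over all genes the 1015 adjusted calls in the last comparison became 0 without control sample 2, 1 without either NMN-supplemented sample and 373 without control sample 1, so the adjusted P-values given for these lists also rest on those samples. Of 20 tested genes of the double-strand break response outside the 37, 3 were higher and 1 lower in heat-stressed than in control oocytes, and 8 were higher and 4 lower in NMN-supplemented than in control oocytes. TDP2, which clears topoisomerase from DNA ends, had 5.16 ± 0.0300 FPKM in control and 8.71 ± 0.499 FPKM with NMN added (SD, n = 2), a rise of 0.66 (limma, adjusted P = 0.023). RIF1, the effector of TP53BP1, went from 1.08 to 2.08 FPKM (0.56, adjusted P = 0.039), whereas EME1, a subunit of a structure-specific nuclease, went from 11.9 to 7.62 FPKM (-0.59, adjusted P = 0.029). MRE11 rose by 0.39 in heat-stressed against control oocytes (limma, adjusted P = 0.18), from a mean of 0.773 to 1.32 FPKM. It reached the level for testing only through the heat-exposed samples. In the comparison of heat stress with and without NMN, 0 of the 20 genes passed in limma at an unadjusted P under 0.05.

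Of 7 tested Fanconi anaemia genes, 3 were higher and 1 lower in NMN-supplemented than in control oocytes. USP1 and WDR48, which form a deubiquitinase complex, were higher by 0.54 and 0.56 on the log2 scale (limma, adjusted P = 0.029 and 0.036), while FAAP24 went from 12.3 ± 0.617 to 4.49 ± 0.329 FPKM (SD, n = 2; -1.28, adjusted P = 0.021). Heat-stressed oocytes had 2 higher and 1 lower than control, and NMN-supplemented oocytes 1 higher and 1 lower than heat-stressed. FANCB rose by 0.32 in heat-stressed against control oocytes (limma, adjusted P = 0.21). Of 4 tested meiotic recombination genes none was higher in any comparison, while TRIP13 fell by 0.63 in heat-stressed against control oocytes (limma, adjusted P = 0.12) and PSMC3IP fell by 1.08 in NMN-supplemented against control oocytes (limma, adjusted P = 0.057), both past the unadjusted threshold. The mean of PSMC3IP with NMN added, 0.849 FPKM, lay below the level for testing, which the gene reached through the other groups.

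Of 8 tested genes of p53 and its targets, 3 were higher and 0 lower both in heat-stressed and in NMN-supplemented oocytes compared with control. PPM1D, a phosphatase that switches off the damage signal, had 3.07 ± 0.328 FPKM in control, 6.11 ± 0.0937 FPKM under heat stress (SD, n = 2; 0.81 against control, limma, adjusted P = 0.11) and 6.50 ± 0.312 FPKM with NMN added (0.89 against control, adjusted P = 0.021). RRM2B, a ribonucleotide reductase subunit, was higher in all 3 comparisons at the unadjusted threshold (adjusted P = 0.14, adjusted P = 0.30 and, with NMN against control, adjusted P = 0.021), with means of 15.5 FPKM in control, 21.5 FPKM under heat stress and 29.4 FPKM with NMN added, and TP53INP1 rose by 0.28 and 0.37 in heat-stressed and NMN-supplemented against control oocytes (limma, adjusted P = 0.22 and adjusted P = 0.063). Of 13 tested genes of base excision, mismatch and single-strand break repair, 6 were higher and 1 lower in NMN-supplemented than in control oocytes, with MSH6 rising by 0.85 (limma, adjusted P = 0.038) and PMS1 by 0.42 (limma, adjusted P = 0.060). LIG3, a ligase of single-strand break repair, was the one that fell, with 3.64 ± 0.0403 FPKM in control, 2.42 ± 0.227 FPKM under heat stress and 1.43 ± 0.188 FPKM with NMN added (SD, n = 2; -0.93 against control, adjusted P = 0.021), in the opposite direction to LIG4.

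Some values are less certain because of the annotation. For 14 of the 37 genes the table lists a locus that holds more than 1 gene, among them RAD1, TOPBP1, CLSPN, TP53BP1, RAD9A and XRCC3, and since the strand setting of the libraries was not stated, reads of overlapping genes cannot be told apart. PALB2, BRCA2, LIG4, CHEK1, BARD1, XRCC6 and MDC1 each had a locus of their own. XRCC3 lies on an unplaced scaffold.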

How the data were processed

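The authors deposited FPKM for 29861 genes in each of the 6 samples. According to the study's methods, reads were trimmed with cutadapt and aligned to the pig genome with tophat2, and the submitters' processing notes name Cufflinks 2.2.1, Cuffnorm and Cuffdiff. The summed FPKM of a sample is not fixed and was 163929 to 290136, so scalings of the samples were among the alternatives. The table also holds the authors' log2 fold changes, p-values and q-values, which were not used. Columns of other samples numbered 0.

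The FPKM values were transformed to log2(FPKM + 1), and the 4713 genes with a mean of at least 1 FPKM were fitted with limma 3.58.1 (variance trend, empirical Bayes, R 4.3.3) as 3 groups over all 6 samples. A gene was called at an unadjusted P under 0.05, two-sided, with the Benjamini-Hochberg count over all tested genes beside it. An exact permutation test of 2 against 2 samples cannot reach this threshold. The model was tested on simulated data with independent normal noise around the mean of each gene. These lack the GC, length and mitochondrial differences of the real samples, so they cannot give the error rates for them. Gene positions, GC content and sequences came from the RefSeq annotation of Sscrofa11.1, the build of the table's coordinates. Values per sample are given for genes called in any comparison, for the highest gene of each role and for any gene listed at 0; from each comparison list of repair genes, the genes with the smallest P are named. ZAR1L, LOC110255454, BRIX1, ABHD13, DCTN5, TUBB, HSCB, MRE11 and LOC100513953 were named after their values were seen. The 37 genes, their roles and the comparison lists were chosen with earlier results of these data known. Tables were handled in Python 3.11.15 (pandas 2.3.3) and figures drawn with matplotlib 3.10.9.

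Alternatives were other pseudocounts, minimum levels and scalings, a replicate block, fitting only the compared groups, no variance trend and leaving out each sample. Removal of GC and length trends and scaling without LOC100513953 were added after the data were seen.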

Additional observations from a re-analysis of the deposited data

How the results depend on the processing

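The counts of called repair genes out of those tested moved with the settings, and no call changed direction. For heat-stressed against control oocytes (3 genes), the count was 6 with a minimum of 0.1 FPKM, 7 without a minimum, 5 at the same median FPKM, 1 in a fit of only these groups, 0 after scaling to the FPKM of nuclear genes, 1 when LOC100513953 was left out of that scaling, and 1 to 4 with 1 sample left out. For NMN-supplemented against heat-stressed oocytes (2 genes), it was 4 with a minimum of 0.1 FPKM, 0 with quantile normalization, 0 with nuclear scaling, 1 with the replicate block, 1 with the GC and length trends removed, and 0 to 3 with 1 sample left out. For NMN-supplemented against control oocytes (8 genes), it was 13 with a minimum of 0.1 FPKM, 4 with a minimum of 5 FPKM, which leaves 6 of the genes to test, 3 with nuclear scaling, 5 with the GC and length trends removed, and 4 to 7 with 1 sample left out. In that comparison PALB2 (0.74 to 1.14), BRCA2 (0.51 to 1.11) and LIG4 (0.51 to 0.92, log2 scale) passed at P under 0.05 in every alternative run, as did XRCC6 in the fit from 0.1 FPKM (-1.22 to -0.49). The 4 calls with an adjusted P under 0.05 became 0 with a minimum of 0.1 FPKM or none, with nuclear scaling and with the GC and length trends removed, and 2 with the replicate block. CHEK1 failed only with nuclear scaling. Nuclear scaling moved the median of all tested genes to -0.22 in heat-stressed against control oocytes, where 34 genes were higher and 528 lower in place of 598 and 476. With LOC100513953 left out of the scaling the counts were 333 and 488.

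With the replicate block the counts were 3, 1 and 7 for the 3 comparisons. Deviations of same-numbered samples correlated by -0.03, 0.01 and -0.01 over the tested genes. With so few samples per group this cannot tell whether the numbers pair the samples. The depth of the libraries is unknown, which limits what can be said of genes below 0.1 FPKM.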
